A study of Mus musculus with 29 samples.

Results

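The cytochrome P450 genes were taken as all protein-coding genes of the count table whose mouse symbol is Cyp followed by a digit. This rule gave 100 of 54532 genes, in 40 subfamilies, and used no measured value. Of the 100 genes, 9 had no count in any mouse, 48 more had a mean count under 3 and 43, from 25 subfamilies, were tested among 18616 genes. The 57 untested genes were scarce, with at most 17 counts in a single mouse, and the 10 most abundant genes held 76.1% of all cytochrome P450 counts.

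RNA of colon segments from 29 mice was sequenced in 9 groups, 6 colitis models and 3 control groups, 1 library per mouse. The question was how each model changed the colon against its own control. The labels name Balb/C for the untreated wild-type (WT) controls (n = 3) and for the mice given DSS (n = 3; 3% dextran sulfate sodium in drinking water for 5 days, culled at day 10), DNBS (n = 3; 3 mg of the hapten in 50% ethanol, given rectally, against controls without ethanol) and a blocking antibody in the IL-10 deficiency model (n = 4; 750 µg, culled after 4 weeks). They name Balb/C Rag2-/- for the untreated Rag2 controls (n = 3), and Balb/C Tbx21-/- x Rag2-/- for the TRUC mice (n = 4), which develop colitis without treatment. They name C57BL/6 Rag1-/- for the untreated Rag1-labelled controls (n = 3), for the mice with T cell transfer (TCT, n = 3; 500000 naive CD4+ cells, culled after 6 to 8 weeks), and for the mice given 50 µg of agonistic anti-CD40 antibody (n = 3; culled after 7 days). Rag1 and Rag2 are needed for T and B cells, so TRUC and anti-CD40 mice and both Rag control groups lack them, while TCT mice hold the T cells they were given. Ages are not in the labels. The study's text differs from the labels in places: it describes Il10-/- mice, and says that wild-type and DSS mice were C57BL/6.

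Cytochrome P450 enzymes are haem proteins that add an oxygen atom to lipids, steroids, vitamins and foreign compounds. Most sit in the endoplasmic reticulum and receive electrons from P450 oxidoreductase (Por), and a few sit in mitochondria and receive them from ferredoxin (Fdx1) and its reductase (Fdxr). In the intestine they belong largely to the epithelium, where members of families 2 and 3 handle drugs and dietary compounds, family 4 hydroxylates fatty acids and leukotrienes, and others work on cholesterol, bile acids, vitamin D and retinoic acid.

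Total counts ran from 10725564 to 14977094 per mouse. Levels are given below as CPM, counts divided by library size in megareads, with TMM, a correction for library composition, and differences as log2 fold changes with their standard error (SE) and the Benjamini-Hochberg adjusted p of edgeR's quasi-likelihood test over all 18616 genes, with a threshold of 0.05. Several libraries went against their labels. H2-Ea-ps, a major histocompatibility transcript that C57BL/6 mice lack, had 67.7 to 317 CPM in every library labelled Rag1 control, anti-CD40, Rag2 control and TRUC, and at most 0.104 CPM in every library labelled WT control, DSS, DNBS, IL-10 deficiency and TCT. Rag2 transcripts followed the same split, with 0.442 to 8.48 CPM against at most 0.0762 CPM. Rag1 transcripts were at 1.85 to 2.88 CPM in the TCT libraries and at most 0.294 CPM in all others, the Rag1-labelled controls and anti-CD40 among them. TCT and its labelled control therefore lay on opposite sides. TCT was also tested against the WT controls, and anti-CD40 against the Rag2 controls, and values are given below for some of the genes. Tbx21, deleted in TRUC by label, had 2.12 to 4.62 CPM in the TRUC libraries, and gene counts cannot show whether the deleted exons are among these reads. Il10, deleted by the study's text, had 5.23 to 11.5 CPM in the IL-10 deficiency libraries and at most 0.266 CPM in the WT controls. Whether the antibody label or the study's text holds was not tested. In the IL-10 deficiency group, mice 3 and 4 stood apart, with 7.89 and 0.313 CPM of Hoxd13, a gene of the distal colon, against 249 and 275 CPM in the other 2 mice, and mouse 4 had 0.209 CPM of Hoxb13.

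To show the regulatory sequence next to genes that moved together, the 250 bases before the annotated start are given for 3 genes that were lower and 2 that were higher in several models (RefSeq, build GRCm38.p6, 5′ to 3′). The windows are chr19:39006769-39007018 (plus strand) for Cyp2c55, chr7:27119705-27119954 (plus) for Cyp2f2, chr1:74713285-74713534 (plus) for Cyp27a1, chr5:4104698-4104947 (minus) for Cyp51 and chr4:96553652-96553901 (minus) for Cyp2j6. Capitals mark the letters of 4 motifs on either strand: GCGTG, the core bound by the aryl hydrocarbon receptor (Ahr), the TATA box as TATAAA, the CCAAT box, and TCACNCCAC, which the sterol-regulated factor Srebf2 can bind. The motifs do not overlap in these windows.
Cyp2c55: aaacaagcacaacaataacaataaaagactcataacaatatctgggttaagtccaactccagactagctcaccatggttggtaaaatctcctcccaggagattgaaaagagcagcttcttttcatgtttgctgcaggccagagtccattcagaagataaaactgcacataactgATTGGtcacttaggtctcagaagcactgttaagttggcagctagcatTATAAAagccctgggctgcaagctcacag
Cyp2f2: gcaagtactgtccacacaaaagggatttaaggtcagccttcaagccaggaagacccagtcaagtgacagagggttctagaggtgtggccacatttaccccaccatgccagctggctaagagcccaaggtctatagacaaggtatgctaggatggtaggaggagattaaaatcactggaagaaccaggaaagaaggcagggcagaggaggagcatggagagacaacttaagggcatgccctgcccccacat
Cyp27a1: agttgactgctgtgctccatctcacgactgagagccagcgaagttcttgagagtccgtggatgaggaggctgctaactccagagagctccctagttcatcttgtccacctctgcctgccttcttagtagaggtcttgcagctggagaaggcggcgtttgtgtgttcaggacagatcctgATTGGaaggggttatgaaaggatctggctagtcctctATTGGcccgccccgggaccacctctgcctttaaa
Cyp51: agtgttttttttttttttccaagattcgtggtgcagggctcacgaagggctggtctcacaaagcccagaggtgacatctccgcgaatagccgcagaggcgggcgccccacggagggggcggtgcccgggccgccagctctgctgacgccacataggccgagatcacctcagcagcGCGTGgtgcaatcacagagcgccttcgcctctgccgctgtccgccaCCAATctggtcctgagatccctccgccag
Cyp2j6: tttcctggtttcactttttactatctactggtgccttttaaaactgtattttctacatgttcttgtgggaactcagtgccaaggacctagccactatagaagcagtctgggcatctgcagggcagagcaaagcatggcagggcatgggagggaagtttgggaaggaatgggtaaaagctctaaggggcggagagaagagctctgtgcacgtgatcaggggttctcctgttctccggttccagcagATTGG
The Cyp2c55 window held TATAAA 29 to 24 bases before the start, and a CCAAT box on the other strand from base 76 to base 72. The Cyp51 window held GCGTG 75 to 71 bases before the start and CCAAT from base 29 to base 25. The windows of Cyp27a1 and Cyp2j6 held CCAAT on the other strand, and that of Cyp2f2 held none of the 4. A window with a RefSeq start within 500 bases of the GENCODE start was at hand for 31 of the 43 tested genes. TATAAA stood in 8 of these 31 (25.8%), against 7.36% of the 11150 tested genes with such a window. GCGTG stood in 9 (29.0%, against 42.7%), CCAAT in 14 (45.2%, against 35.9%), and TCACNCCAC in 0 (against 1.03%). These matches are letters in a window and were not tested. Only these letters were searched, so a site of Srebf2 or Ahr written with other letters would be missed.

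Most changed cytochrome P450 genes were lower in colitis. In TRUC 32 of the 43 were called, 7 higher and 25 lower, where 45.8% of all genes tested were called, 22.4% higher and 23.4% lower. In DSS 4 were higher and 14 lower (34.0% of all genes called, 17.7% higher and 16.3% lower). In DNBS 1 was higher and 3 lower (6.17% called, 3.95% higher and 2.21% lower). In the IL-10 deficiency model 6 were higher and 19 lower (53.3% called, 27.2% higher and 26.1% lower). In TCT 4 were higher and 13 lower (30.1% called, 16.1% higher and 14% lower), and in anti-CD40 3 were higher and 10 lower (21.6% called, 10.9% higher and 10.7% lower). Mice that did not overlap their controls were common in all genes, as in the IL-10 deficiency model, where 27.6% of all genes tested had every mouse above and 28.0% every mouse below the controls, against 6 and 18 of the 43. The lower calls thus made up 58.1%, 32.6%, 6.98%, 44.2%, 30.2% and 23.3% of the 43 genes, in the same order of models. The share of higher calls, from 2.33% to 16.3% of the 43, was below that of all genes in every model. The median log2 fold change of the 43 genes ranged from -0.48 in DNBS to -1.37 in TRUC, with -0.57 in IL-10 deficiency, -0.79 in DSS, -0.94 in anti-CD40 and -0.72 in TCT, against medians between -0.03 and 0.02 for all genes. DSS, DNBS and IL-10 deficiency share the WT controls, and TCT and anti-CD40 share the Rag1-labelled controls, so their values are given side by side. With IL-10 mice 3 and 4 left out together, a setting chosen after seeing the data, 17 genes were called in that model, 4 higher and 13 lower.

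**Figure D1:**
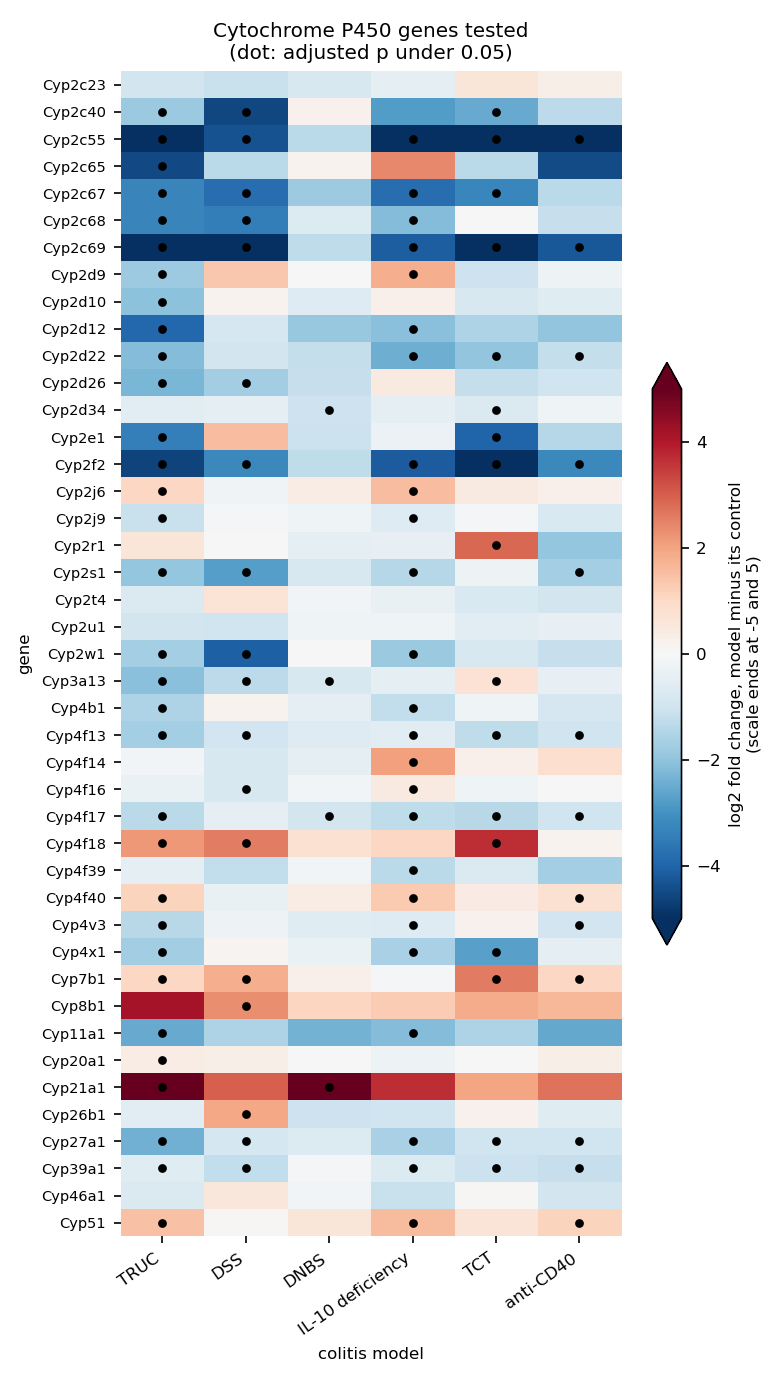
Heat map of the log2 fold change of the 43 tested genes (rows) in each colitis model against its labelled control (columns), with blue for lower, red for higher and a dot for adjusted p under 0.05. TRUC has the most dots, 32, and DNBS the fewest, 4, and Cyp2c55, Cyp2c69 and Cyp2f2 are dark blue in 5 models.

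Of the 43 genes, 25 were called lower in at least 1 model and higher in none, 11 were only higher, 3 were called in both directions and 4 in no model. Of the 25, 7 were lower in 5 models: Cyp2c55, Cyp2c69, Cyp2f2, Cyp4f13, Cyp4f17, Cyp27a1 and Cyp39a1. None was called lower in all 6. These counts over models were not made for all genes tested, so whether they are unusual cannot be said. The changes were unequal between the 6 models for 32 of the 43 genes (quasi-likelihood F test of equal changes, adjusted p under 0.05), where 60.5% of all genes tested were unequal.

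Cyp2c55, an arachidonic acid monooxygenase of the gut and the most abundant of these genes per length in the WT controls (212 CPM per kilobase), fell in 5 of the 6 models. Its level was 394, 379 and 493 CPM in the WT controls. It was 8.24, 51.7 and 1.52 CPM in DSS, 263, 162 and 66.8 CPM in DNBS, and 0.0843, 0.415, 0.257 and 6.06 CPM in IL-10 mice 1 to 4. All mice of these 3 models were below all WT controls, and the DNBS mice were the nearest to them. The Rag1-labelled controls had 302, 396 and 205 CPM, the TCT mice 3.14, 1.79 and 0 CPM and the anti-CD40 mice 0, 0 and 0.43 CPM. The Rag2 controls had 137, 142 and 174 CPM and the TRUC mice 0.0737, 0.178, 0.0916 and 0.57 CPM, so that neither TCT, anti-CD40 nor TRUC overlapped its controls. The log2 fold change was -9.30 in TRUC (SE 1.15, adjusted p = 2.15e-06), -10.76 in anti-CD40 (SE 1.37, 2.13e-05), -8.03 in IL-10 deficiency (SE 0.97, 1.12e-06), -7.49 in TCT (SE 1.07, 1.04e-05) and -4.36 in DSS (SE 0.87, 0.000533). The DNBS value, -1.36 (SE 0.76), did not pass the test (adjusted p = 0.275). Against the WT controls TCT stood at -7.98 (SE 1.09).

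Cyp2f2, known for activating naphthalene in the airway, had 13.6 to 21.9 CPM in the WT controls, 28.6 to 39.98 in the Rag1-labelled and 36.5 to 43.7 in the Rag2 controls. It had 0.32 to 3.01 CPM in DSS, 0 to 1.37 in IL-10 deficiency, 0.278 to 1.92 in TCT, 1.46 to 5.09 in anti-CD40 and 0.711 to 2.93 in TRUC, with no overlap between any of these groups and its controls. DNBS mice had 13.5, 4.34 and 4.01 CPM, of which the highest was just under the lowest WT control. The fall was 25.2-fold in TRUC, 9.50-fold in DSS, 34.0-fold in TCT, 18.4-fold in IL-10 deficiency and 9.33-fold in anti-CD40 by the group means (log2 fold changes from -5.06 to -3.21, SE 0.59 to 0.70, adjusted p from 3.04e-06 to 0.000738).

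**Figure D2:**
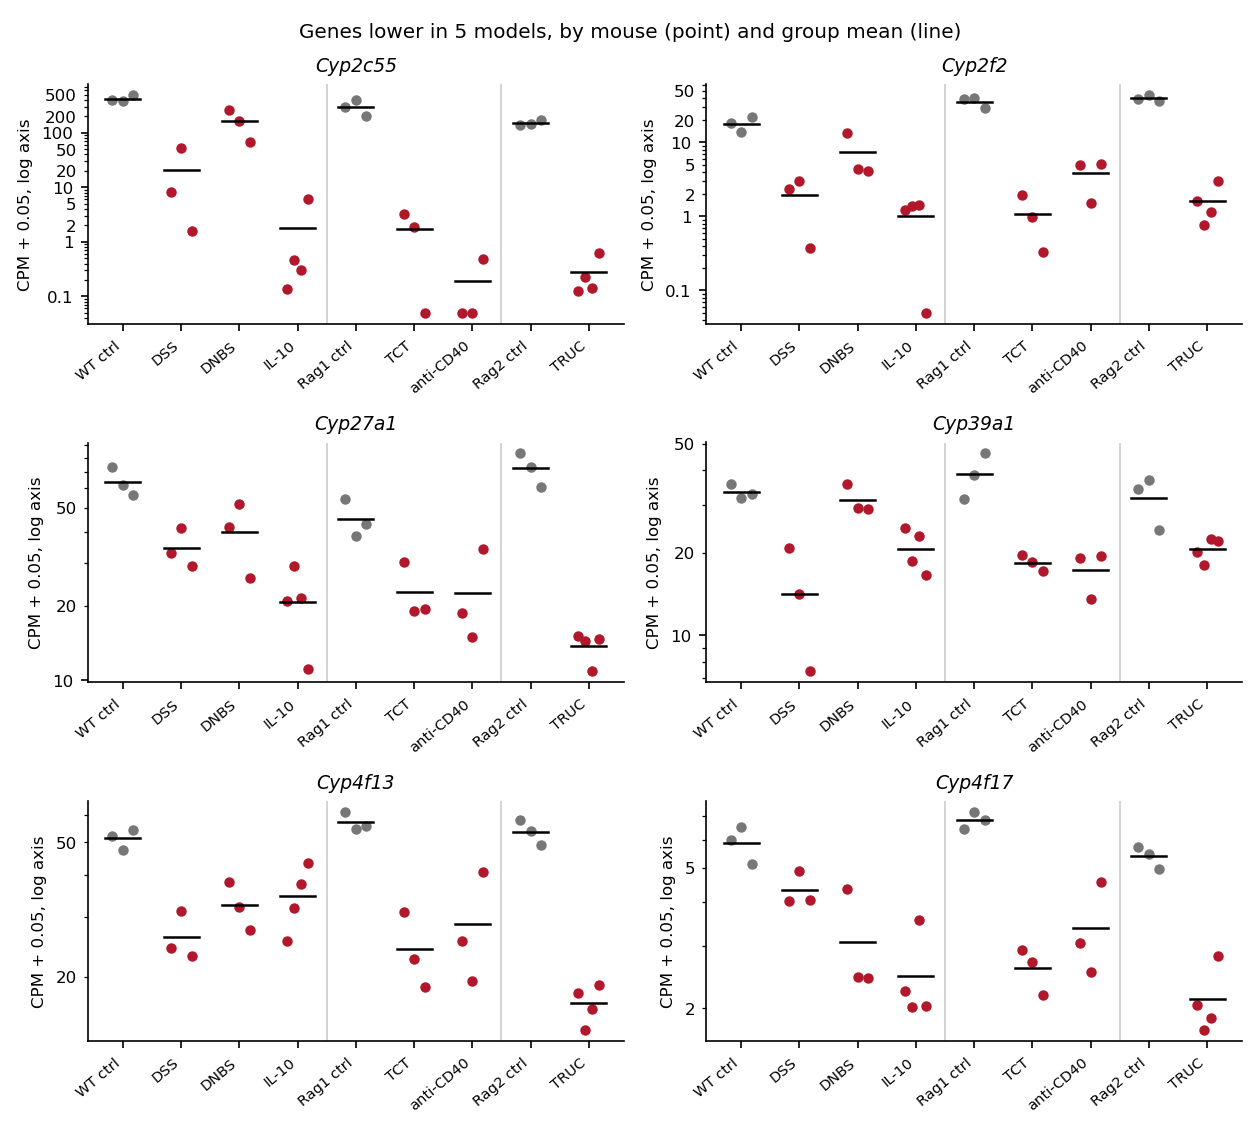
Level in each mouse (point; CPM + 0.05 on a log axis) and group mean (line) of 6 of the 7 genes lower in 5 models, with controls in grey, colitis models in red and vertical lines between sets that share controls. Cyp2c55 fell from 137 CPM or more in every control to 51.7 CPM or less in every mouse of the 5 models other than DNBS.

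The Cyp2c subfamily lies on chromosome 19 (GRCm38 39007019 to 44029208) and has 15 members, of which 7 were tested. The summed level of the 15 was 534 ± 64.7 CPM (SD, n = 3) in the WT controls, 365 ± 101 CPM in the Rag1-labelled and 237 ± 27.4 CPM in the Rag2 controls. It was 235 ± 130 CPM in DNBS, 32.8 ± 34.7 in DSS, 56.2 ± 31.1 in TCT, 53.6 ± 44.5 in IL-10 deficiency (n = 4), 25.9 ± 10.7 in anti-CD40 and 9.86 ± 4.17 in TRUC (n = 4). Lower calls numbered 6 of 7 in TRUC, 4 in TCT and in IL-10 deficiency, 5 in DSS, 2 in anti-CD40 and 0 in DNBS, and no higher call was made. Cyp2c40, Cyp2c67, Cyp2c68 and Cyp2c69 share between 43.3% and 60.3% of their 50-base windows with each other or with a relative, so their counts cannot be fully separated. Cyp2c69 had no count in any TRUC mouse against 1.68, 2.68 and 5.13 CPM in the Rag2 controls, at least 12.6-fold lower when a count of 0 is set to a floor of 3 counts per library. Cyp2c67 was at 0.466 to 0.99 CPM in the WT controls and at most 0.0683 CPM in DSS, at least 3.72-fold lower, and Cyp2c40 had no count in any DSS mouse against 0.0666 to 0.381 CPM, a call lost without any single DSS mouse.

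Cyp2c65, next to Cyp2c55 on the chromosome, showed what a single library can do. It had 4.93 to 5.57 CPM in the WT controls, 1.01, 0.415 and 0.772 CPM in IL-10 mice 1 to 3 and 108 CPM in mouse 4, the mouse with almost no Hoxb13 or Hoxd13. Its log2 fold change in this model was 2.40 with all mice (SE 1.09, adjusted p = 0.0667) and -2.79 without mouse 4 (adjusted p = 0.000227). In TRUC it was at 0 to 0.295 CPM against 1.95 to 3.62 CPM (log2 fold change -4.51, SE 1.73, adjusted p = 0.0360), a call lost when any of several mice was left out.

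Cyp2d members, hepatic drug-metabolizing enzymes by reputation, lie together on chromosome 15 (82370527 to 82794294), and 6 of 8 were tested. Cyp2d34, the most abundant of them, had 388 to 443 CPM in the WT controls and 174 to 229 CPM in DNBS, a 2.06-fold fall (log2 -1.04, SE 0.26, adjusted p = 0.0193) and the most abundant of these genes called in that model. Each of the 3 lower calls in DNBS (Cyp2d34, Cyp3a13 and Cyp4f17) was lost when some single mice were left out. Cyp2d34 was not called in TRUC, where 273 to 402 CPM stood below 452 to 680 CPM. It was called lower there by edgeR on the 2 groups alone (adjusted p = 0.0098), by DESeq2 (0.0014) and under upper quartile scaling (0.0259). In TCT it was called lower (log2 -0.72, adjusted p = 0.0356), a call kept in 1 of the 6 fits that left out a mouse. Cyp2d22 had 42.7 to 69.9 CPM over all controls and fell 4.53-fold in TRUC, 3.93-fold in TCT, 5.48-fold in IL-10 deficiency and 2.31-fold in anti-CD40, where the anti-CD40 call was lost without mouse 6 or 7 or without Rag1-labelled control 4. In DSS and DNBS it was not called. DESeq2 called it lower in both (adjusted p = 0.00382 and 0.000126), as did edgeR under upper quartile scaling (0.0484 and 0.0483). Cyp2d12 fell 15.4-fold in TRUC, from 74.6 to 127 CPM to 4.45 to 9.76 CPM. It was also called lower in IL-10 deficiency (log2 -2.08, adjusted p = 0.0200). That call was lost without mouse 1 (0.0555) or without mice 3 and 4 together (0.136). In TCT its level was 90.1 CPM in mouse 1 and 6.75 and 8.98 CPM in the other 2 mice, and it was called there only without mouse 1 (log2 -3.71, adjusted p = 0.00165).

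**Figure D3:**
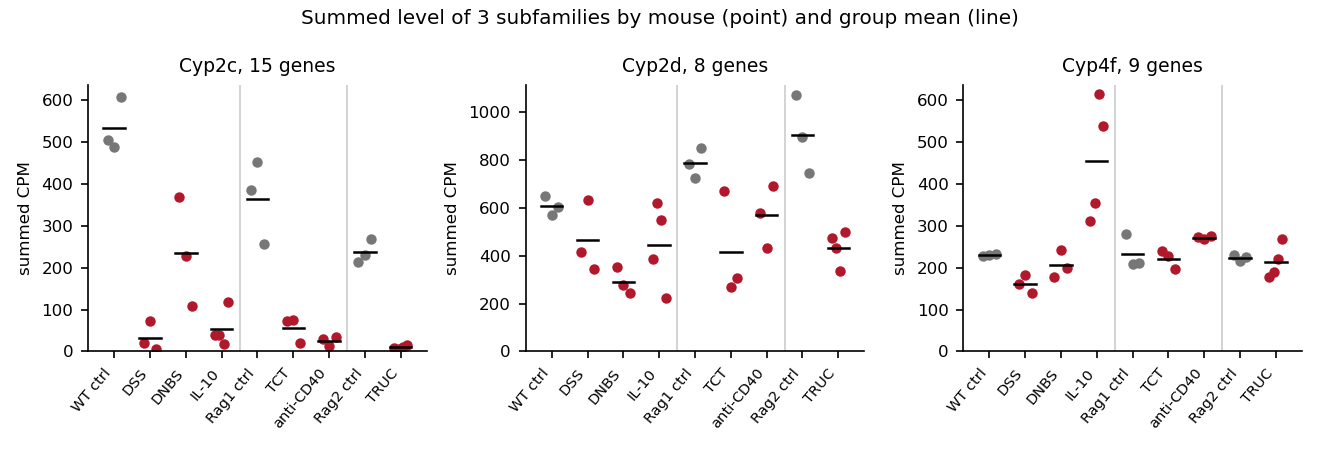
Summed level (CPM) of all genes of the Cyp2c, Cyp2d and Cyp4f subfamilies in each mouse (point), with the group mean (line), controls in grey and colitis models in red. The Cyp2c sum is lowest in TRUC, at 5.42 to 15.1 CPM, while the Cyp4f sum is highest in IL-10 deficiency, at 310 to 613 CPM.

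Cyp2s1, which Ahr can induce and which is found outside the liver, had 226, 232 and 260 CPM in the WT controls and 34.7, 62.7 and 9.11 CPM in DSS, a 6.75-fold fall (log2 -2.75, SE 0.54, adjusted p = 0.000461). It also fell 3.84-fold in TRUC, 2.72-fold in IL-10 deficiency and 3.23-fold in anti-CD40, with no overlap of the mice, though the anti-CD40 call was lost without mouse 6 or 7 or without Rag1-labelled control 3. TCT mice had 219, 78.7 and 42.6 CPM against 112 to 157 CPM in the Rag1-labelled controls and overlapped them. The other 3 Ahr-linked genes were too scarce to test: Cyp1a1 reached 11 counts in a Rag1-labelled control and at most 3 in any mouse with colitis, and Cyp1b1 reached 15 counts, in IL-10 mouse 4. Cyp2w1, known from the fetal colon and colon tumours, had 5.26 to 5.90 CPM in the WT controls and 0 to 0.692 CPM in DSS (log2 -4.07, SE 0.69, adjusted p = 0.000117). It also fell in TRUC (3.30-fold) and IL-10 deficiency (3.66-fold), and in DNBS its 9.67, 3.64 and 2.81 CPM lay on both sides of the controls.

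Cyp2e1, the ethanol-oxidizing enzyme, had 0.732 to 3.27 CPM in the WT controls, 11.3 to 20.03 CPM in the Rag1-labelled and 5.57 to 26.0 CPM in the Rag2 controls. It was 0.711 to 3.66 CPM in TRUC (log2 -3.42, SE 0.82, adjusted p = 0.00181) and 0 to 2.22 CPM in TCT (log2 -4.01, SE 0.99, adjusted p = 0.00325), but against the WT controls TCT was not called (log2 -0.90, adjusted p = 0.534). DSS mice had 9.18, 5.67 and 0.799 CPM, 2 of them above all WT controls, and anti-CD40 mice 0.563, 3.68 and 12.8 CPM, which overlapped their controls. Neither model was called, but anti-CD40 was lower without mouse 8 (adjusted p = 0.0360). Cyp2e1 is also abundant in fat, and 4 of 4 adipocyte markers fell in TRUC, 3 of 4 in TCT and 2 of 4 in anti-CD40. Against the WT controls none of these markers was called in TCT, and against the Rag2 controls 1 of 4 fell in anti-CD40. Their summed level was 9.29 to 63.2 CPM in the Rag2 and 29.2 to 53.5 CPM in the Rag1-labelled controls, 4.57 to 10.2 CPM in TRUC, 3.75 to 10.8 CPM in TCT, 5.63 to 21.0 CPM in anti-CD40, 8.63 to 16.5 CPM in DSS and 3.33 to 9.14 CPM in the WT controls. Their part in the result was not tested. Here and below, fewer cells of a type and less RNA per cell cannot be told apart in whole tissue.

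Cyp2j6, an epoxygenase of the intestine, was among the few family 2 genes that rose. It had 48.9, 44.1 and 52.2 CPM in the WT controls and 98.5, 109, 86.5 and 271 CPM in IL-10 mice 1 to 4, all above them (log2 1.54, SE 0.26, adjusted p = 3.59e-05). The Rag2 controls had 49.0, 48.6 and 45.8 CPM and the TRUC mice 95.9, 105, 103 and 85.9 CPM (log2 1.03, SE 0.25, adjusted p = 0.00204). Its neighbour Cyp2j9 fell in the same 2 models (log2 -1.11 in TRUC and -0.66 in IL-10 deficiency).

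The fatty acid and leukotriene hydroxylases of the Cyp4f subfamily moved both ways. On chromosome 17 (32452723 to 32947402) 8 members lie side by side, and Cyp4f18 lies on chromosome 8. Cyp4f13 had 47.4 to 61.4 CPM over all controls and fell 3.23-fold in TRUC, to 13.9 to 18.8 CPM, and 1.49-fold to 2.38-fold in DSS, IL-10 deficiency, TCT and anti-CD40. Cyp4f17 had 4.91 to 7.14 CPM over all controls and fell 1.92-fold to 2.66-fold in TRUC, DNBS, IL-10 deficiency, TCT and anti-CD40. The IL-10 deficiency call of Cyp4f13 and the DNBS and anti-CD40 calls of Cyp4f17 were lost when some single mice were left out. The anti-CD40 call of Cyp4f17 was also lost against the Rag2 controls (log2 -0.67, adjusted p = 0.0598). Over the same region Cyp4f40 rose. It had 50.6, 56.0 and 48.8 CPM in the WT controls and 109, 117, 124 and 162 CPM in IL-10 deficiency (log2 1.30, SE 0.21, adjusted p = 2.52e-05). It rose 2.16-fold in TRUC, from 40.1 to 43.8 CPM to 70.6 to 105 CPM, and 1.69-fold in anti-CD40, where 78.3, 85.4 and 91.6 CPM stood above 40.4 to 60.6 CPM, a call lost without anti-CD40 mouse 7 or without Rag1-labelled control 4. Cyp4f14 had 39.4 to 50.6 CPM in the WT controls and 95.9, 104, 301 and 236 CPM in IL-10 mice 1 to 4 (log2 2.03, SE 0.54, adjusted p = 0.00295), but without mice 3 and 4, which stand apart, it was not called (log2 1.15, adjusted p = 0.0934). DSS mouse 8 had only 3.92 CPM of it, against 29.4 and 44.5 CPM in the other DSS mice. Cyp4f16 fell in DSS, to 33.2 to 45.2 CPM from 65.4 to 77.6 CPM (log2 -0.80, SE 0.18, adjusted p = 0.00137), and was called higher in IL-10 deficiency (log2 0.44, SE 0.17, adjusted p = 0.0280), a call lost without mouse 3, without WT control 1 or 2, under upper quartile scaling and by DESeq2 (adjusted p from 0.0769 to 0.177), and also without mice 3 and 4 together (0.324).

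Cyp4f18, which inactivates leukotrienes in myeloid cells, had 2.97, 4.06 and 5.00 CPM in the WT controls and 10.2, 10.5 and 51.1 CPM in DSS (log2 2.57, SE 0.48, adjusted p = 0.000273). It rose from 0.531 to 0.906 CPM to 2.28 to 4.89 CPM in TRUC (log2 2.19, SE 0.55, adjusted p = 0.00249) and was 7.18 to 14.8 CPM in TCT against 0.486 to 1.03 CPM (log2 3.70) or, in the WT controls, 2.97 to 5.00 CPM (log2 1.39, SE 0.47, adjusted p = 0.0281). Anti-CD40 mice, at 0.502 to 1.31 CPM, overlapped their controls. The 4 neutrophil markers rose in all 6 models. Their summed level was 0.81 to 1.74 CPM over all controls and 20.4 to 89.5 CPM in DNBS, 31.2 to 189 in anti-CD40, 108 to 254 in TCT, 129 to 333 in IL-10 deficiency, 167 to 1497 in DSS and 752 to 1244 in TRUC. All 4 macrophage markers were called higher in TRUC, DSS and TCT, the 3 models in which Cyp4f18 was called, and 1 or none in the others. Their summed level was above the controls in every model, however. It was 226 to 370 CPM over all controls, 538 to 630 in TRUC, 810 to 1655 in DSS and 1130 to 2039 in TCT. It was 693 to 1111 CPM in IL-10 deficiency, 452 to 533 in DNBS and 423 to 690 in anti-CD40. Cyp4f18 was also called higher in IL-10 deficiency by edgeR on the 2 groups alone (adjusted p = 0.0213) and by DESeq2 (0.0046). The highest values of Cyp4f18 and of the neutrophil markers were both in DSS mouse 8. The part of these cells in the result was not tested.

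Other family 4 genes were lower where called. Cyp4v3, a fatty acid hydroxylase known from the retina, had 21.7 to 26.9 CPM in the Rag2 controls and 7.24 to 10.7 CPM in TRUC (log2 -1.37, SE 0.22, adjusted p = 4.15e-05), and fell 1.57-fold in IL-10 deficiency and 1.93-fold in anti-CD40. The IL-10 deficiency call was lost without WT control 4 or mouse 4 (adjusted p = 0.0751 and 0.0565), and also without mice 3 and 4 together (0.125). The anti-CD40 call was lost without mouse 7 (0.0613). Cyp4b1, known from the lung, fell 3.05-fold in TRUC and 2.36-fold in IL-10 deficiency from levels of 1.28 to 3.503 CPM in those controls, and the latter call was lost without WT control 1 (adjusted p = 0.0507). Cyp4x1, an orphan enzyme with at most 1.15 CPM in any mouse, fell in TRUC, IL-10 deficiency and TCT, and its exons overlap an antisense gene. Its IL-10 deficiency call was kept in 3 of the 7 fits that left out a single mouse, and was lost by DESeq2 (adjusted p = 0.209) and without mice 3 and 4 (0.342). The 8 Cyp4a genes were all too scarce to test.

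Among the genes of sterols and bile acids, the synthetic enzyme rose and 2 hydroxylases fell. Cyp51, the lanosterol demethylase of cholesterol synthesis, had 143, 101 and 136 CPM in the WT controls and 377, 376, 294 and 490 CPM in IL-10 deficiency, a 3.03-fold rise (log2 1.60, SE 0.25, adjusted p = 2.04e-05). It had 98.4, 122 and 114 CPM in the Rag2 controls and 258, 339, 336 and 290 CPM in TRUC, a 2.75-fold rise (log2 1.46, SE 0.25, adjusted p = 7.77e-05). In both models all mice were above all controls. Anti-CD40 mice had 260, 345 and 147 CPM against 152, 127 and 66.9 CPM (log2 1.12, SE 0.26, adjusted p = 0.00391), with the lowest of them under the highest control, and the call was lost without anti-CD40 mouse 7 (adjusted p = 0.0513). DNBS mice, at 166, 208 and 200 CPM, lay above the WT controls without a call, and DSS mice, at 108 to 151 CPM, overlapped them. An exon of Cyp51 overlaps Akap9 on the opposite strand.

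Cyp27a1, the mitochondrial sterol hydroxylase of bile acid synthesis, had 73.3, 62.0 and 56.4 CPM in the WT controls and 32.8, 41.4 and 29.1 CPM in DSS and 21.0, 29.0, 21.4 and 11.1 CPM in IL-10 deficiency. It had 83.3, 73.0 and 60.8 CPM in the Rag2 controls and 15.1, 14.4, 10.8 and 14.6 CPM in TRUC, a 5.28-fold fall (log2 -2.40, SE 0.28, adjusted p = 1.12e-06). TCT mice had 30.0, 19.0 and 19.4 CPM and anti-CD40 mice 18.6, 14.9 and 34.1 CPM, all below the 38.3 to 54.1 CPM of the Rag1-labelled controls. On the log2 scale the change was -0.998 in anti-CD40, -0.98 in TCT, -1.63 in IL-10 deficiency and -0.89 in DSS (SE 0.28 to 0.30), and the DSS, TCT and anti-CD40 calls were each lost when some single mice were left out. Cyp39a1, an oxysterol hydroxylase, fell 2.37-fold in DSS, 2.23-fold in anti-CD40, 2.10-fold in TCT, 1.61-fold in IL-10 deficiency and 1.54-fold in TRUC, with no overlap of the mice. The TRUC call was lost without TRUC mouse 3 or without Rag2 control 1 or 2, and the IL-10 deficiency call without mice 3 and 4 together (adjusted p = 0.0667). In DNBS it was at 29.0 to 35.6 CPM against 31.6 to 35.6 CPM.

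Cyp7b1, another oxysterol hydroxylase, rose in 4 models. It had 3.12, 3.13 and 2.05 CPM in the WT controls and 5.85, 9.36 and 14.5 CPM in DSS (log2 1.83, SE 0.31, adjusted p = 0.000119). The TRUC mice had 2.43 to 2.93 CPM against 1.21 to 1.504 CPM (log2 1.05, SE 0.33, adjusted p = 0.0113). The Rag1-labelled controls had 0.516 to 0.972 CPM, lower than the WT controls, the TCT mice 3.75 to 6.58 CPM (log2 2.60, and 0.86 against the WT controls, SE 0.31, adjusted p = 0.0408) and the anti-CD40 mice 1.22 to 2.06 CPM. The anti-CD40 call (adjusted p = 0.0484) was lost in 5 of the 6 fits that left out a mouse, and was not made against the Rag2 controls (log2 0.37, adjusted p = 0.469). Cyp8b1, needed for cholic acid, was called in DSS at 0.252, 0.273 and 1.92 CPM against at most 3 counts in each WT control, and the call was lost when any single WT control was left out. Cyp46a1, a cholesterol hydroxylase of neurons, had at most 0.957 CPM in any mouse, and Cyp7a1, the rate-limiting enzyme of bile acid synthesis in the liver, had no count.

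**Figure D4:**
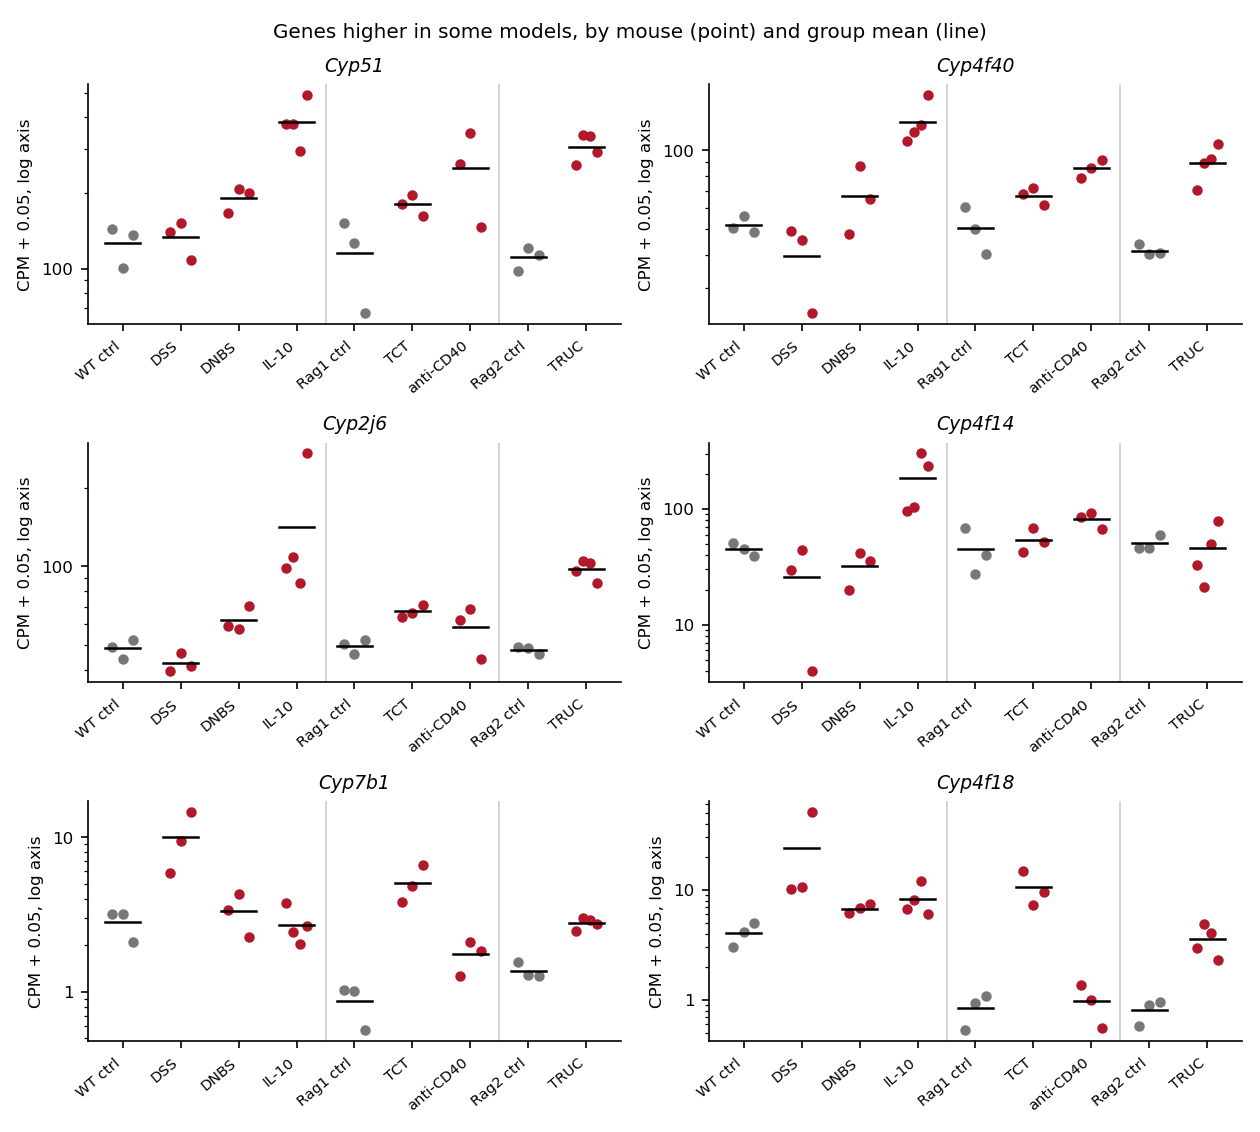
Level in each mouse (point; CPM + 0.05 on a log axis) and group mean (line) of 6 genes called higher in some models, with controls in grey and colitis models in red. Cyp51, Cyp4f40 and Cyp2j6 are above all controls in every IL-10 deficiency and TRUC mouse, while Cyp7b1 and Cyp4f18 have their highest mean in DSS.

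Of the other genes, Cyp20a1, an orphan enzyme, had 31.6 to 37.9 CPM in TRUC against 26.0 to 26.9 CPM in the Rag2 controls (log2 0.39, SE 0.14, adjusted p = 0.0227) and was called in no other model. The TRUC call was lost without Rag2 control 1 or 2 or TRUC mouse 4, and under upper quartile scaling (adjusted p from 0.0596 to 0.104). Cyp2t4, Cyp2u1, Cyp2c23 and Cyp46a1 were called in none, with Cyp2t4 at most 1.18 CPM and Cyp2u1 at most 1.28 CPM in any mouse.

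Genes of steroid hormones were near the limit of detection. Cyp11a1, the side-chain cleavage enzyme that starts steroid synthesis, had 0.604 to 1.95 CPM in the Rag2 controls and 0.147 to 0.275 CPM in TRUC, at least 4.59-fold lower, and 0.738 to 1.13 CPM in the WT controls against 0 to 0.343 CPM in IL-10 deficiency (log2 -2.18, SE 0.78, adjusted p = 0.0210). The TRUC call was lost without Rag2 control 1 (adjusted p = 0.0760). The IL-10 deficiency call was lost without WT control 2 or mouse 4 (0.0576 and 0.0531), and also without mice 3 and 4 together (0.0838). Cyp21a1, the adrenal steroid hydroxylase, had no count in any of the 9 control mice. It had 13, 16, 9 and 4 counts in the TRUC mice and 22, 21 and 2 in the DNBS mice, at least 3.67-fold and 4.62-fold higher by mean level. It was the sole gene called higher in DNBS. Without DNBS mouse 11 or mouse 14 its mean count fell under the filter, so no higher call was left there, and the DNBS call was lost with edgeR on the 2 groups alone (adjusted p = 0.0715). Its exons overlap Tnxa on the opposite strand, 23.8% of its windows are shared with Cyp21a2-ps or Tnxa, and the counts could not be assigned between them.

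Among vitamin D genes Cyp2r1, which makes the circulating form of the vitamin, was tested. It had 2.05 to 3.00 CPM in the WT controls, 1.40 to 2.05 in TCT, 1.49 to 2.17 in DNBS, 1.36 to 3.14 in DSS and 1.15 to 2.70 in IL-10 deficiency. It had at most 0.356 CPM in every Rag1-labelled control, anti-CD40, Rag2 control and TRUC mouse, so the groups fell on the same sides as for H2-Ea-ps. Its call in TCT (log2 2.86, SE 0.46, adjusted p = 4.35e-05) was not made against the WT controls (log2 -0.46, adjusted p = 0.330). Cyp27b1, which makes the active hormone, had at most 5 counts in a mouse, and Cyp24a1, which destroys it, had no count. Cyp26b1, which clears retinoic acid, had 1.37 to 2.60 CPM in the WT controls and 9.24, 4.37 and 11.2 CPM in DSS (log2 1.94, SE 0.47, adjusted p = 0.00281), and it was called in no other model.

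Cyp3a13, the sole tested gene of the 9 Cyp3a genes, also differed between controls. It had 159, 141 and 134 CPM in the WT controls, 41.9, 25.2 and 27.4 CPM in the Rag1-labelled and 45.5, 48.4 and 69.6 CPM in the Rag2 controls. It fell in DSS (40.4 to 75.6 CPM; log2 -1.32, SE 0.23, adjusted p = 0.000154), in DNBS (78.1 to 87.0 CPM; log2 -0.82, SE 0.23, adjusted p = 0.0343) and in TRUC (8.98 to 16.1 CPM; log2 -2.07, SE 0.22, adjusted p = 3.20e-07). TCT mice had 49.6 to 54.4 CPM and were higher than the Rag1-labelled controls (log2 0.72, adjusted p = 0.0202), lower than the WT controls (log2 -1.48, adjusted p = 7.74e-05), and not called against the Rag2 controls (log2 -0.07). Its direction in TCT thus followed the control chosen, and the call against the Rag1-labelled controls was lost without control 3 or 4 or TCT mouse 5. In anti-CD40 it was not called against the Rag1-labelled controls but was lower than the Rag2 controls (log2 -1.21, adjusted p = 0.000979). Cyp2d9 was 9.98 to 17.8 CPM in the WT controls but 60.5 to 104 CPM in the other 6 control mice. It fell in TRUC, to 16.4 to 34.7 CPM (log2 -1.80, SE 0.50, adjusted p = 0.00501), and was called higher in IL-10 deficiency, at 33.7, 72.5, 72.7 and 13.6 CPM (log2 1.82, SE 0.53, adjusted p = 0.00632), where mouse 4 lay within the WT range.

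**Figure D5:**
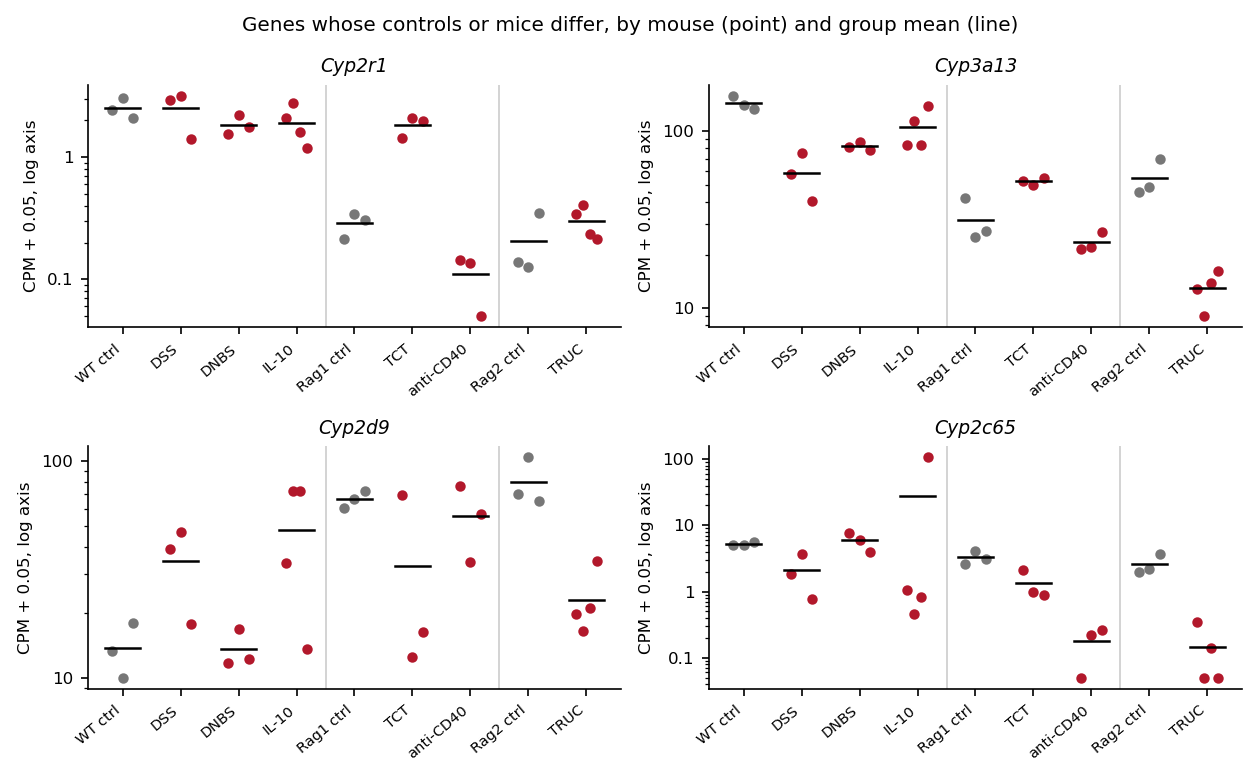
Level in each mouse (point; CPM + 0.05 on a log axis) and group mean (line) of 4 genes whose control groups or single mice differ, with controls in grey and colitis models in red. Cyp2r1 is at 1.15 CPM or more in WT control, DSS, DNBS, IL-10 deficiency and TCT mice and at most 0.356 CPM in all others, and Cyp2c65 reaches 108 CPM in IL-10 mouse 4.

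The 3 control groups were unequal for 8 of the 43 genes (11.4% of all genes tested): Cyp2c23, Cyp2c67, Cyp2d9, Cyp2e1, Cyp2r1, Cyp3a13, Cyp4f18 and Cyp7b1. Between Rag1-labelled and Rag2 controls edgeR called 0 of the 43 genes, and 3 had an unadjusted p under 0.05, where 0.124% of all genes were called (0.0698% higher, 0.0537% lower). Against the WT controls, 6 genes differed in the Rag2 controls, 3 higher and 3 lower (8.11% of all genes called, 3.25% higher and 4.86% lower), and 7 in the Rag1-labelled controls, 3 higher and 4 lower (10.9% called, 4.77% higher and 6.18% lower). The WT controls and both Rag control groups also lay on opposite sides of the H2-Ea-ps split. Genotype and mouse background therefore cannot be told apart in these differences. With the WT controls in place of the labelled ones, TCT had 14 calls, 2 higher and 12 lower (30.8% of all genes called). With the Rag2 controls, anti-CD40 had 18, 3 higher and 15 lower (24.2%). Among the named genes, Cyp2c67, Cyp3a13 and Cyp11a1 were then also lower in anti-CD40 (log2 -1.72, -1.21 and -3.64). Cyp8b1, without a count in the Rag2 controls, was called higher (log2 5.21), and Cyp7b1 and Cyp4f17 lost their call. The named genes called lower in TCT kept their direction against the WT controls, and of these Cyp2e1, Cyp2c67, Cyp2c40 and Cyp2d34 lost their call. Cyp11a1 was called lower in TCT against the WT controls (log2 -2.41, adjusted p = 0.0374) but not against the Rag1-labelled controls.

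Of the electron donors 7 of 9 listed genes were tested. Fdxr fell in TRUC, DSS, IL-10 deficiency, TCT and anti-CD40 (log2 from -1.33 to -0.48) and Por in TRUC and anti-CD40 (-0.58 and -0.63), and over the 7 genes there was 1 higher and 2 lower calls in TRUC and in IL-10 deficiency, 4 lower in DSS and in anti-CD40, 2 lower in TCT and none in DNBS. Over the same 7 genes, TCT had 2 lower calls against the WT controls, and anti-CD40 had 1 higher and 0 lower against the Rag2 controls. Of 14 regulators, all tested, 2 were higher and 5 lower in TRUC, 1 and 5 in DSS, 6 and 2 in IL-10 deficiency, and 1 and 3 in both TCT and anti-CD40, with no call in DNBS. With those other controls, 1 regulator was higher and 4 lower in TCT, and 1 and 2 in anti-CD40. Ppara, a fatty acid receptor, fell in TRUC (log2 -2.82), DSS (-1.49), TCT (-1.52) and anti-CD40 (-1.22). Vdr, the vitamin D receptor, fell in TRUC (-1.78), DSS (-2.46) and TCT (-0.96). Srebf2, the factor of cholesterol synthesis, rose in TRUC (0.44) and IL-10 deficiency (0.81), where Cyp51 rose, and was not called in anti-CD40 (0.28). Ahr fell in TRUC (-0.48), IL-10 deficiency (-0.50) and anti-CD40 (-0.49), and Nr1h4, the bile acid receptor, rose in 4 models, by 1.97 in IL-10 deficiency.

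Epithelial markers did not fall with the cytochrome P450 genes in most models: of 6, 4 were higher in TRUC, 5 in IL-10 deficiency, 2 in anti-CD40 and 1 in DNBS, none was called in TCT, and 2 were lower in DSS. Against the WT controls 3 were higher in TCT, and against the Rag2 controls 2 were higher and 1 lower in anti-CD40. The summed level of the 6 was 10125 to 10872 CPM in TRUC against 8387 to 9140 CPM in the Rag2 controls, and 5164 to 6408 CPM in DSS against 6805 to 7992 CPM. Of 5 markers of mature colonocytes, 3 were lower and 1 higher in TRUC, 1 and 1 in DSS, 1 and 2 in IL-10 deficiency, 2 and 1 in TCT (1 and 1 against the WT controls), 0 and 1 in anti-CD40 and 0 in DNBS. Their summed level was 2640 to 3250 CPM in TRUC against 3542 to 4306 CPM, and 3053 to 5780 CPM in IL-10 deficiency against 2881 to 3653 CPM. In DNBS, without a call, it was 1620 to 2902 CPM, with a median log2 fold change of -1.08. The sum hides markers that went opposite ways. Slc26a3 was at 78.9 to 540 CPM in IL-10 deficiency and 224 to 330 CPM in DNBS, against 725 to 1016 CPM. Cdhr5 was at 676 to 1124 CPM in IL-10 deficiency and 512 to 533 CPM in DNBS, against 563 to 706 CPM. Of 6 hepatocyte markers 5 fell in anti-CD40, 3 in TCT (0 against the WT controls) and 1 in each of TRUC and DSS, 2 rose and 1 fell in IL-10 deficiency, and none was called in DNBS. Their summed level was 66.5 to 92.7 CPM over all controls, mostly Ttr, and Alb was at most 15.5 CPM in any mouse. The sum was 4.16 to 12.8 CPM in DSS, 7.54 to 11.7 in anti-CD40, 9.25 to 25.7 in TRUC, 15.5 to 39.99 in IL-10 deficiency, 24.2 to 53.1 in TCT and 54.6 to 84.3 in DNBS. The 4 pancreas markers were too scarce to test. The part of maturation in the falls was not tested.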

How the data were processed

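Poly(A) RNA from colon segments of 29 mice was sequenced. The authors deposited raw counts of reads per gene, and the submitters' processing notes name Trimmomatic, HISAT2, HTSeq and GRCm38. The strand setting is not given in the sources used here, so genes that overlap on opposite strands cannot be told apart. Groups came from the labels. The labels number mice but name no cages or litters, so p-values measure the spread between mice. Gene symbols and biotypes came from GENCODE (54409 of 54532 identifiers matched). The 92 spike-in rows held 0 counts and were left out.

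All 29 libraries were fitted together in edgeR 4.0.16 (R 4.3.3) with TMM scaling, 1 mean per group and the quasi-likelihood test. The test covered 18616 genes whose count averaged 3 or more, with Benjamini-Hochberg adjustment over all of them and a threshold of 0.05. CPM values used TMM-scaled library sizes. Levels of 3 counts or fewer per library were replaced by a floor of 3 counts for folds given as "at least". The floors cover counting error only, while SEs, SDs and p-values hold the spread between mice. Sharing between genes was counted over 50-base windows of exon sequence. Of the tested genes, 11 shared over 10% of their windows, Cyp2d9 (21.8%) and Cyp4f16 (17.4%) among them. An exon of another gene overlapped 14 tested genes, Cyp2s1, Cyp4f18 and Cyp4v3 among them. The procedure was tested on simulated data. No pair among 33 pairs of same-group libraries agreed within sampling noise (lowest chi-square per degree of freedom 3.65). Alternatives were RLE and upper quartile scaling, other count filters, a threshold of 0.01, fits on 2 groups alone, DESeq2 1.42.0, other controls, a replicate block and leaving out mice. Replicate numbers did not pair the mice. Named genes were the most abundant member of each subfamily tested, up to 5 members with the largest called rise and 5 with the largest called fall per model without overlap of the mice, members called in 1 direction in at least 5 models or in both directions, and 13 members by known role. Cyp2j9, Cyp2c23 and Cyp2c68 fall outside this rule and were named after their values were seen. The members and lists were chosen with earlier results of these data known, and 3 of the 4 promoter motifs were chosen after seeing the data. Proteins were not analysed here.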

Additional observations from a re-analysis of the deposited data

Results flagged for a closer look

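Among 74 groups of 4 mice, 9 had a single mouse far from the other 3, by a gap that filled most of the range. Chance alone sets such a mouse apart in about 1 of 20 independent groups. These groups are 37 genes in the same IL-10 deficiency and TRUC mice, so 9 of 74 cannot be set against that rate. In IL-10 deficiency the highest mouse stood apart for Cyp2c40 (0.104 CPM, 1 count against 0), Cyp2c55 (6.06 CPM), Cyp2c65 (108 CPM), Cyp2c67 (0.169 CPM, 2 counts against 0), Cyp2j6 (271 CPM) and Cyp4f17 (3.52 CPM), and the lowest for Cyp2f2 (0 CPM) and Cyp2w1 (0.209 CPM). This was mouse 4 for all of them other than Cyp2c67 (mouse 1) and Cyp4f17 (mouse 3). In TRUC the lowest mouse stood apart for Cyp27a1 (10.8 CPM).

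The changes of the named genes were unequal between the 6 models for 29 genes (edgeR's quasi-likelihood F test, Benjamini-Hochberg adjusted p). In family 2 the adjusted p was 4.82e-06 for Cyp2c55, 0.00709 for Cyp2c65, 0.0358 for Cyp2c67, 0.00624 for Cyp2c69, 0.00146 for Cyp2d9, 0.00456 for Cyp2d22 and 0.00400 for Cyp2e1. It was 0.000618 for Cyp2f2, 6.99e-05 for Cyp2j6, 6.78e-06 for Cyp2r1, 0.00771 for Cyp2s1 and 0.000691 for Cyp2w1, and 2.89e-06 for Cyp3a13. In family 4 it was 0.0199 for Cyp4b1, 0.0260 for Cyp4f13, 0.000438 for Cyp4f14, 8.28e-05 for Cyp4f16, 0.0414 for Cyp4f17, 3.49e-05 for Cyp4f18, 1.59e-05 for Cyp4f40, 0.000501 for Cyp4v3 and 0.0153 for Cyp4x1. Among the others it was 8.82e-06 for Cyp7b1, 0.00643 for Cyp20a1, 0.0119 for Cyp21a1, 3.47e-05 for Cyp26b1, 0.00272 for Cyp27a1, 0.00488 for Cyp39a1 and 0.000193 for Cyp51. The test does not say which models differ, it takes TCT against the Rag1-labelled controls, and 60.5% of all genes tested passed it.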

How the results depend on the processing

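Of 100 calls of a named gene in a model, 68 were kept whichever single mouse was left out, 26 were lost without some mouse, and 6, of Cyp21a1, Cyp2c40 and Cyp8b1, could not be followed throughout because the gene fell under the count filter without some mouse. The number of cytochrome P450 genes called then ran from 28 to 32 in TRUC, 15 to 18 in DSS, 0 to 9 in DNBS, 21 to 26 in IL-10 deficiency, 13 to 19 in TCT and 5 to 15 in anti-CD40, with 5 without anti-CD40 mouse 7. Genes unequal between models numbered 29 to 36, and between controls 4 to 8. A threshold of 0.01 left 1 call in DNBS, 14 in IL-10 deficiency, 8 in anti-CD40 and 5 between controls, by construction. DESeq2 called 12 genes in DNBS, and the cause was not tested. Directions turned for Cyp3a13 in TCT against the WT controls (log2 -1.48) and the Rag2 controls (-0.067), for Cyp2r1 in TCT against the WT controls (-0.46), and for Cyp2c65 in IL-10 deficiency without mouse 4 (-2.79, against 2.349 to 2.812 without any other single mouse) and without mice 3 and 4 (-2.80, chosen after seeing the data). Upper quartile scaling moved the median of all genes by -0.107 in TRUC and -0.167 in IL-10 deficiency. Same-numbered mice of model and control had correlations of -0.075 to 0.078, and with the number as a replicate block TRUC had 35 calls and IL-10 deficiency 20, against 34 and 20 in the same mice without the block. No paired analysis was possible for DSS, DNBS and anti-CD40, which share no number with their controls, or for TCT, which shares 1. With 10725564 to 14977094 counts per mouse, 57 of the 100 genes were too scarce to test.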
